A study of Mus musculus with 2 samples.

Results

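Osr1, Foxc2, Tcf21, Nkx2-5, Eomes, Mesp1, Mesp2, Tbx6 and Msgn1 encode transcription factors of mesoderm, the middle germ layer from which muscle, skeleton, kidney, heart and blood arise. Their levels were compared between embryoid bodies, clumps of differentiating embryonic stem (ES) cells, on 2 Applied Biosystems mouse arrays. The bodies on 1 array came from Elongin A-/- (EloA-/-) ES cells and those on the other from Elongin A+/+ (EloA+/+) ES cells. Both received 2 µM retinoic acid and were collected at day 4, in medium with serum and N2 supplement, so retinoic acid is shared by both genotypes and no untreated body was compared here. The labels do not say how many ES cell clones stand behind a genotype. Elongin A is a subunit of Elongin, which helps RNA polymerase II to elongate transcripts. The genes were found by exact symbol in the platform annotation, which gave 9 probes for 9 genes, 1 each, among 13697 genes named on the array.

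With 1 array per genotype there was no replicate, so no difference below was tested, and an effect of genotype cannot be told apart from one of the cell line, the culture or the array. The small number of arrays limits the precision of every value. The arrays held 32440 probes each, with deposited medians of 1.03 for Elongin A-/- and 1.02 for Elongin A+/+. Intensities in arbitrary units are given after quantile normalisation, which puts both arrays on the same distribution. A gene above the array median of 1.03, used as a floor for dim signal, on at least 1 array was taken as measured, and 9568 genes were. Differences are log2 values, Elongin A-/- minus Elongin A+/+, and a gene below the floor on 1 array has only a bound, written "at least". Different probes of 1 gene disagreed in this difference with an SD of 0.43 over 224 genes, a technical error that says nothing of variation between cultures. The Eloa probe read 3.57 in Elongin A-/- and 3.87 in Elongin A+/+. No source used here says whether it lies inside the deletion, so it does not check the labels.

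Mesoderm forms at the primitive streak, where signals of the Nodal, WNT, BMP and FGF families induce T-box factors such as Eomes, which in turn act upstream of the bHLH factor Mesp1 in the precursors of the heart. Posterior cells that take up Tbx6 and Msgn1 become presomitic mesoderm, in which Mesp2 sets the borders of the somites. As mesoderm regionalises, Foxc2 marks paraxial mesoderm and later mesenchyme and vessels, Osr1 the intermediate and lateral mesoderm that gives kidney and heart, Tcf21 the splanchnic and epicardial mesenchyme, and Nkx2-5 the heart field. Retinoic acid steers embryoid bodies mainly towards neural fates.

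The 4 factors of regionalised mesoderm were brighter on the Elongin A-/- array, and the 5 factors of the streak and presomitic mesoderm were below the floor on both arrays. Osr1, Foxc2, Tcf21 and Nkx2-5 were each at least 2-fold higher in Elongin A-/-, by 2.19-fold to 3.83-fold. Over all 9568 measured genes 6.76% were past the same fold in that direction and 5.97% in the other, 647 and 571 genes. With the values as deposited the split was 799 and 449, so that higher genes made up 64.0% of those past 2-fold in place of 53.1%. The median log2 difference of the 4 genes was 1.71, beside -0.02 over all measured genes. The 9 genes were listed with earlier results of these data known, so the count of 4 is a description. In bulk RNA, more cells of a type and more RNA per cell cannot be told apart.

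Sequence upstream of the start was available from RefSeq (build GRCm38.p6) for 7 of the 9 genes and not for Osr1 and Foxc2. The 250 bases before the start are shown for 2 of the brighter genes and for 2 of those below the floor, so that the letters of both kinds can be read side by side. The windows are chr10:22820144-22820393 on the minus strand for Tcf21, chr17:26841566-26841815 on the minus strand for Nkx2-5, chr7:79793591-79793840 on the minus strand for Mesp1 and chr12:11208949-11209198 on the minus strand for Msgn1. Each runs 5′ to 3′, and capitals mark matches on either strand to the motifs searched, which were AGGTCA (the half-site of retinoic acid receptors), GATAA (GATA factors), CANNTG (the E-box of bHLH factors), TGTTTAC (forkhead factors), AAGTG (NKX2 factors) and AGGTGT (T-box factors).
Tcf21: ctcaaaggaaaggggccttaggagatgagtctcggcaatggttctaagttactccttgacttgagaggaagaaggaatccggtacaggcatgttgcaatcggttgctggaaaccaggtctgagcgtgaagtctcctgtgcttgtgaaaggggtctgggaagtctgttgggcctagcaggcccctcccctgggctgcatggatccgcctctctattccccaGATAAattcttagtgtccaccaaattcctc
Nkx2-5: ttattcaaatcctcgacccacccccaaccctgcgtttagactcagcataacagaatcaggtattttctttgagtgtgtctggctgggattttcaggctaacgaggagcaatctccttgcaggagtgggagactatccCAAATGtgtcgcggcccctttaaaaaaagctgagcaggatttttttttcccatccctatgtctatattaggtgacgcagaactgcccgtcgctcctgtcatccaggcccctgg
Mesp1: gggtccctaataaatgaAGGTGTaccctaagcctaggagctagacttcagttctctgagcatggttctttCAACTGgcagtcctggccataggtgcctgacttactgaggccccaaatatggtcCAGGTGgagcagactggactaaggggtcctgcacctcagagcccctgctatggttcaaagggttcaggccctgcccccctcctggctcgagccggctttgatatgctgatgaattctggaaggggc
Msgn1: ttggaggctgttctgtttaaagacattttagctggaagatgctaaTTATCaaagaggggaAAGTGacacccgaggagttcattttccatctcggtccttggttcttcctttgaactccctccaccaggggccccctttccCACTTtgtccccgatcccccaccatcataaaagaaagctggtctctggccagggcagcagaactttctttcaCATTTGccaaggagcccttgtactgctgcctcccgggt
The Tcf21 window held 1 GATAA, 30 bases before the start, and the Nkx2-5 window 1 E-box, CAAATG, 113 bases before it. The Mesp1 window held 2 E-boxes, CAACTG at 180 and CAGGTG at 126 bases, and 1 AGGTGT at 233 bases. The Msgn1 window held 1 E-box at 38 bases, a GATAA on the other strand at 205 bases, and AAGTG on either strand at 190 and 110 bases. No marked matches overlap in these windows, although an E-box whose inner letters fit can share bases with AAGTG or AGGTGT. Over the 7 windows, an E-box was present in 4, GATAA in 2, AAGTG in 2, AGGTGT in 1, and AGGTCA and TGTTTAC in 0. Of 27025 promoters of the same length, 66.0% held an E-box, 23.0% GATAA, 40.8% AAGTG, 11.99% AGGTGT, 13.8% AGGTCA and 3.09% TGTTTAC. The search describes letters only, and says nothing of a factor's binding.

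Osr1, a zinc finger factor needed for kidney and heart septum formation (probe 672611, chromosome 12), read 4.44 in Elongin A-/- and 1.16 in Elongin A+/+. The difference of 1.94 (3.83-fold) was exceeded by 121 of 9568 measured genes. On the Elongin A+/+ array Osr1 lay only 1.13 times above the floor, so its difference is close to a bound, and a pseudocount at the floor reduced it to 1.32. Dim genes differ more between arrays. Of 1658 other measured genes whose brighter value was within 1.5 times that of Osr1, 13.5% were at least 2-fold higher in Elongin A-/- and 13.8% at least 2-fold lower, and 2.77% differed by as much as Osr1 or more in the same direction.

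Foxc2, a forkhead factor of somites, mesenchyme and vessels (probe 392514, chromosome 8), read 43.0 in Elongin A-/- and 13.1 in Elongin A+/+. Both values were well above the floor, at 41.9 times its level in Elongin A-/- and 12.8 times in Elongin A+/+, and the difference was 1.71 (3.27-fold). Among 1038 other genes within 1.5 times its brighter value, 4.34% were at least 2-fold higher, 2.60% were at least 2-fold lower, and 1.54% were higher by as much as Foxc2 or more. The 522 measured genes of chromosome 8 had a median of 0.43, the highest of 20 chromosomes, and 11.9% of them were at least 2-fold higher. With that median taken off, the Foxc2 difference was 1.28. Beyond this subtraction, the part of the chromosome's shift in the Foxc2 value was not tested.

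Tcf21, a bHLH factor of splanchnic mesoderm and of kidney and epicardial mesenchyme (probe 717850, chromosome 10), read 6.31 in Elongin A-/- and 1.94 in Elongin A+/+. The difference was 1.71 (3.26-fold). Of 1666 other genes near its brighter value 11.2% were at least 2-fold higher, 9.06% were at least 2-fold lower and 4.68% were higher by as much as Tcf21 or more. Its chromosome had a median of -0.07 over 446 measured genes.

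Nkx2-5, the NK2 homeobox factor of heart precursors (probe 533164, chromosome 17), read 8.01 in Elongin A-/- and 3.66 in Elongin A+/+. Its difference of 1.13 (2.19-fold) was the smallest of the 4 and lay just past the 2-fold mark. A larger difference was found in 501 of 9568 measured genes. Of 1611 others near its brighter value 9.56% were at least 2-fold higher, 5.77% were at least 2-fold lower and 7.95% were higher by as much as Nkx2-5 or more. With a pseudocount at the floor the difference was under 2-fold, at 0.95.

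**Figure D1:**
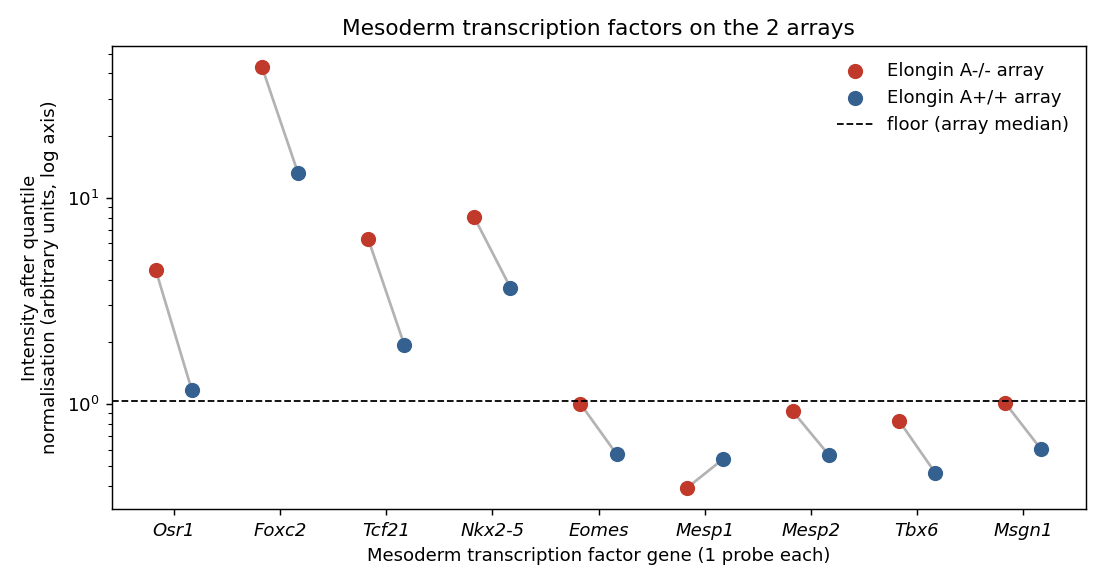
Intensity after quantile normalisation (arbitrary units, log axis) of the 9 mesoderm transcription factor genes, with the Elongin A-/- array left and the Elongin A+/+ array right for each gene, 1 probe and 1 array per point. Osr1, Foxc2, Tcf21 and Nkx2-5 lie above the dashed floor on both arrays and higher in Elongin A-/-, and the other 5 genes lie below the floor on both.

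**Figure D2:**
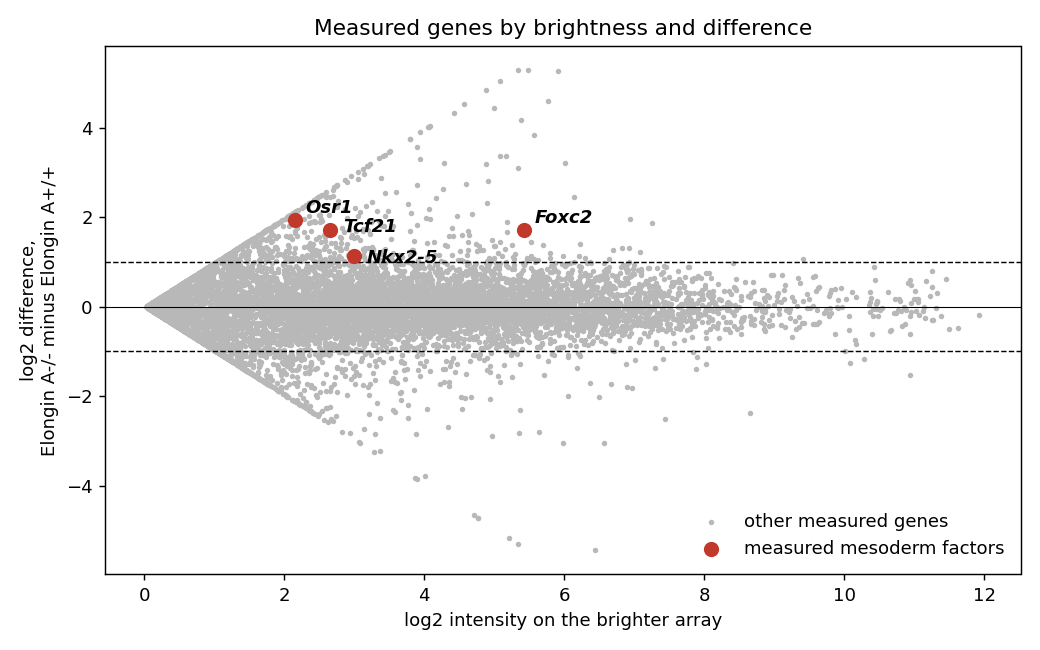
Log2 difference (Elongin A-/- minus Elongin A+/+) against log2 intensity on the brighter array for the 9568 measured genes, with dashed lines at 2-fold. Near the level of Osr1 13.5% of genes were at least 2-fold higher, near Tcf21 11.2%, near Nkx2-5 9.56% and near Foxc2 4.34%.

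The early factors gave no usable difference. Eomes, the T-box factor of the streak (probe 584143), read 0.999 in Elongin A-/- and 0.570 in Elongin A+/+, under the floor of 1.03. Mesp1, the bHLH factor of heart precursors (probe 406709), read 0.390 in Elongin A-/- and 0.538 in Elongin A+/+, the only one of the 5 with the lower value in Elongin A-/-. Its neighbour on chromosome 7, Mesp2, which acts at somite borders (probe 541607), read 0.918 in Elongin A-/- and 0.564 in Elongin A+/+. These signals are too dim on either array to rank the genotypes.

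The presomitic pair was as dim. Tbx6, the T-box factor that holds cells in the paraxial fate (probe 454931), read 0.828 in Elongin A-/- and 0.464 in Elongin A+/+. Msgn1, a bHLH factor of presomitic mesoderm (probe 733438), read 1.01 in Elongin A-/- and 0.600 in Elongin A+/+. Values below the floor have no order, although 4 of these 5 genes had the higher value in Elongin A-/-, beside 49.1% of the 4129 genes below the floor on both arrays. Of all named genes 30.1% were below the floor on both arrays. With the floor lowered to the 25th percentile the 5 genes became measured. Eomes was at 0.81, Mesp2 at 0.70 and Msgn1 at 0.75, each under 2-fold. Mesp1 and Tbx6 were still below that floor on 1 array, so their values of -0.06 and 0.68 are bounds. A bound under 2-fold cannot show whether a gene was 2-fold apart.

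The closest relatives of the 9 factors were mostly dim. Of 11 named relatives 4 were measured, 1 of them at least 2-fold higher and none lower, with a median of 0.52. Foxc1, which overlaps Foxc2 in somites and vessels, read 2.74 in Elongin A-/- and was below the floor in Elongin A+/+, at least 2.67-fold higher. Tcf15, a bHLH factor of somites, differed little, with 7.83 in Elongin A-/- and 7.08 in Elongin A+/+. Tcf23 was at least 1.70-fold higher, and Nkx2-4 read 1.39 in EloA-/- and 1.14 in EloA+/+. Osr2, Nkx2-1, Nkx2-2, Nkx2-3, Nkx2-9, Tbr1 and Tbx21 were below the floor on both arrays, and 3 other listed relatives had no probe with a single symbol here.

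Other mesoderm genes did not share 1 direction. Bulk RNA does not show which cells gave a signal. Some genes of these lists also stand among the neural, endoderm, pluripotency, endothelial or mesenchyme markers below, so the lists are not independent. Kdr is counted both in the streak list and among the endothelial and blood markers. Pdgfra and Prrx1 are counted both in a mesoderm list and among the mesenchyme markers. Of 71 named genes in 4 mesoderm lists 45 were measured, with 7 at least 2-fold higher (15.6%), 6 at least 2-fold lower (13.3%) and a median of 0.16. Over all measured genes the shares were 6.76% higher and 5.97% lower, so a count of 1 in a list of 10 to 14 genes, as below, is near the background. These shares depend on brightness. Near the level of Osr1 they were 13.5% higher and 13.8% lower, and near that of Foxc2 4.34% higher and 2.60% lower. The 15.6% and 13.3% of the 4 lists were not matched for brightness, and 12 of the 45 differences are bounds. All list medians include bounds where a list has any. Bounds made up 6 of 14 measured genes in the streak list, 5 of 13 in heart muscle, 4 of 10 in endoderm and 5 of 11 in mesenchyme. Streak and new mesoderm genes had 1 of 14 higher and 3 lower, with a median of -0.33. The higher one was Kdr, the VEGF receptor of blood and vessel progenitors (54.4 in EloA-/-, 2.23 in EloA+/+). The lower ones were the WNT ligand Wnt3a (2.61 in EloA-/-, 8.72 in EloA+/+), the WNT target Sp5 (2.04 in EloA-/-, 14.7 in EloA+/+) and the caudal factor Cdx2, at least 2.84-fold lower. The listed streak genes T (Tbxt) and Gsc had no probe with a single symbol here, so their levels are not known. Mesoderm-inducing ligands, receptors and mediators had 0 of 13 at least 2-fold higher and 1 lower, Wnt3a again, with a median of -0.04.

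Genes of the same tissues as the 4 brighter factors were mixed. Paraxial and somite genes had 4 of 12 measured at least 2-fold higher and 1 lower, with a median of 0.20. Besides Foxc1 the higher ones were Hes7, an oscillating repressor of the segmentation clock (5.80 in EloA-/-, 1.53 in EloA+/+), Meox1, a homeobox factor of somites (38.6 in EloA-/-, 17.8 in EloA+/+), and Scx, a bHLH factor of tendon precursors (2.19 in EloA-/-, 1.04 in EloA+/+). The lower one, looked up after its value was seen, was the Notch ligand Dll1 (2.33 in EloA-/-, 4.76 in EloA+/+). Meox1 and Hes7 lie on chromosome 11, where the median of 803 measured genes was 0.41. Their differences, 1.11 for Meox1 and 1.92 for Hes7, are given with that median left in. Meox1 lies past the 2-fold mark by less than that median.

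Intermediate mesoderm and kidney genes, the tissue of Osr1, had 1 of 10 higher and 1 lower, with a median of 0.29. Six2, of kidney progenitors, read 6.46 in Elongin A-/- and 3.17 in Elongin A+/+, a difference of 1.02. The difference was 0.87 for Wt1, of kidney and epicardium, and -1.21 for Gata3, of the nephric duct. Lhx1 had -0.87, and Pax2, the nephric lineage factor, was below the floor on both arrays.

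Lateral plate and heart field regulators, the tissue of Tcf21 and Nkx2-5, also had 1 of 10 higher and 1 lower, with a median of 0.39. Gata5, a heart and endoderm factor, was at least 2.35-fold higher in Elongin A-/-, and Isl1, a factor of the second heart field and of motor neurons, was 4.47-fold lower. Log2 differences were 0.73 for Gata6 and 0.99 for Prrx1, a factor of limb and craniofacial mesenchyme, and -0.98 for Tbx2, a repressor in the heart. Tbx20, a heart T-box factor, read 1.15 in Elongin A-/- and was below the floor in Elongin A+/+. Gata4 and Hand1, heart regulators that work beside Nkx2-5, were below the floor on both arrays.

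Genes of heart muscle, the tissue Nkx2-5 helps to form, went both ways. Of 13 measured members 0 were higher by 2-fold in Elongin A-/-, a count near the 6.76% over all genes, and 3 were lower by that much. By any margin 5 were higher and 8 lower, with a median of -0.60, and 12 further genes were below the floor. The cardiac actin Actc1 read 1.03 in Elongin A-/- and 3.31 in Elongin A+/+, the troponin Tnni3 1.26 in EloA-/- and 3.92 in EloA+/+, and Pln, which restrains the calcium pump, was at least 2.01-fold lower. Nppa, the atrial peptide that Nkx2-5 activates, had a difference of -0.73, and the light chain Myl3 one of 0.90. Myl7 and Tnnt2, defining genes of heart muscle, were below the floor on both arrays. The median of this list turned to 0.10 with the floor at the 25th percentile or with no floor.

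**Figure D3:**
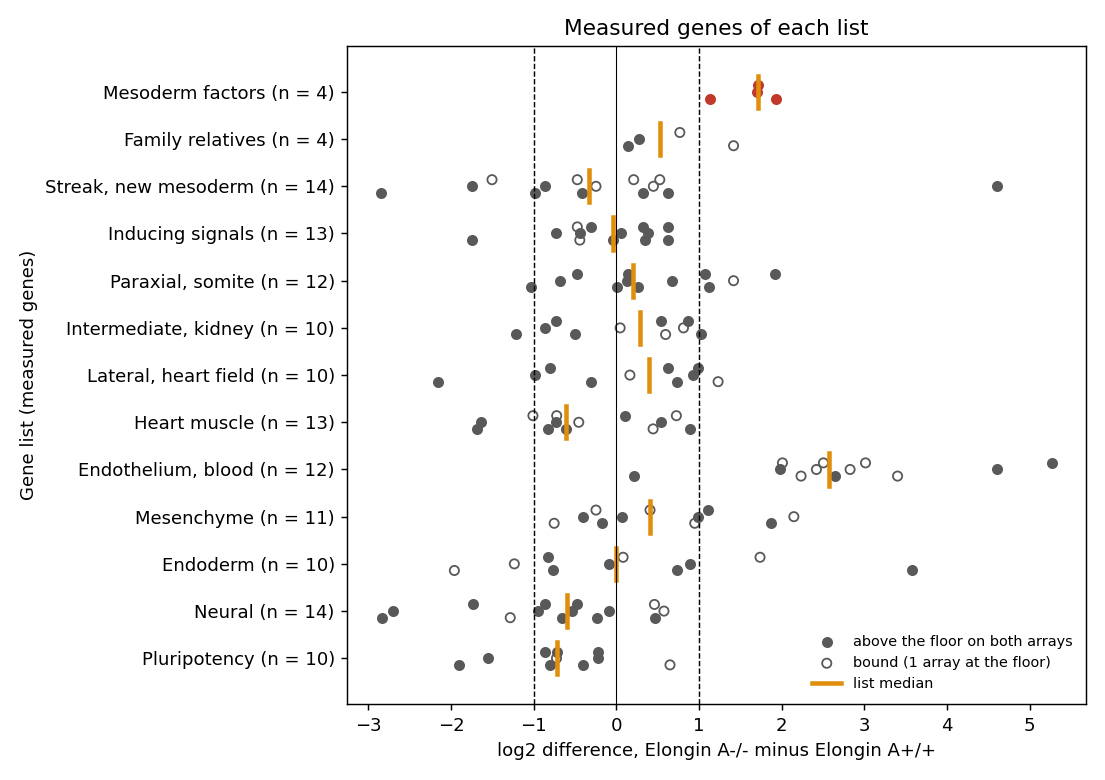
Log2 difference (Elongin A-/- minus Elongin A+/+) of each measured gene by list, filled where both arrays were above the floor and open where 1 was at the floor, with the list median as a vertical bar and dashed lines at 2-fold. The 4 mesoderm factors lie to the right of the 2-fold line, the other mesoderm lists straddle 0 and heart muscle has a median of -0.60.

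Marker lists of other cell types that embryoid bodies can hold differed too. Endothelial and early blood markers had 11 of 12 measured members higher by 2-fold or more in Elongin A-/- and none lower, with a median of 2.57. Of the 12, 7 were below the floor in Elongin A+/+ and count as measured only through the Elongin A-/- array. Their differences are bounds, which the median includes. Summed intensities of the list were 211 in Elongin A-/- and 27.8 in Elongin A+/+, with most of the gap from Cldn5 and Kdr. Cldn5 read 60.2 in EloA-/- and 1.56 in EloA+/+, and Tal1 and Hbb-bh1 were at least 10.6-fold and 8.07-fold higher, while the defining endothelial genes Cdh5 and Tie1 were below the floor on both arrays. Mesenchyme markers had 3 of 11 higher and none lower, with a median of 0.41. Their sums were 198 in Elongin A-/- and 81.5 in Elongin A+/+, and Col3a1 alone gave most of that gap. The higher ones were the collagen genes Col1a1, at least 4.43-fold, and Col3a1 (152 in EloA-/-, 41.8 in EloA+/+), and the proteoglycan Dcn (6.28 in EloA-/-, 2.92 in EloA+/+). Foxc2 is known in both tissues and Tcf21 in mesenchyme. The part of either list in the values of these factors was not tested.

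Endoderm markers had 2 of 10 higher, Sox7 (14.9 in EloA-/-, 1.25 in EloA+/+) and Ttr (at least 3.34-fold), and 2 lower, Afp (at least 3.89-fold) and Cxcr4 (at least 2.35-fold), with a median of -0.0044. Their sums were 52.9 in Elongin A-/- and 38.5 in Elongin A+/+, a gap near that of Sox7 alone. Foxa2 had -0.77 and Sox17 had 0.90. Neural markers, of the fate that retinoic acid favours, were measured in 14 of 15 cases, with 0 higher, 4 lower and a median of -0.60. Olig3 (5.71 in EloA-/-, 40.8 in EloA+/+), Neurod4 (3.13 in EloA-/-, 20.4 in EloA+/+), Neurog2 (2.42 in EloA-/-, 8.07 in EloA+/+) and Sox1, at least 2.43-fold, were the lower ones. Pluripotency markers had 2 of 10 lower, Klf5 (1.53 in EloA-/-, 5.71 in EloA+/+) and Zfp42 (1.48 in EloA-/-, 4.34 in EloA+/+), none higher, and a median of -0.72, and Pou5f1, below the floor in Elongin A-/- and at 1.70 in Elongin A+/+, was at least 1.65-fold lower.

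Genes next to the 4 brighter factors were within 2-fold about as often as other genes. Up to 3 named protein-coding genes on each side of each factor, by a rule set after the values were seen, gave 20 measured neighbours, of which 1 was at least 2-fold higher and 2 were lower, with a median of -0.13. The 17 within 2-fold were 85.0% of them, beside 87.3% of all measured genes. Both shares count a bound under 2-fold as within it, although the full difference may be larger. The measured neighbours of Osr1 ran from -0.55, for Matn3, to 0.56, for Nt5c1b. Both ends are bounds, so the full differences may lie outside this range. Foxc2 sits in a cluster with Foxf1 and Foxl1 on chromosome 8. Foxf1, a forkhead factor of splanchnic mesoderm, read 2.42 in Elongin A-/- and 1.27 in Elongin A+/+, a difference of 0.93, and Mthfsd, between Foxf1 and Foxc2, had 0.57. Foxl1, on the other side, was below the floor in Elongin A-/- and read 1.34 in Elongin A+/+. Near Tcf21 the higher neighbour was Sgk1 (2.19), a kinase gene that lies 8 protein-coding genes away, while the closer Tbpl1 had -0.42 and Slc2a12 had -1.09. Around Nkx2-5 the range was -1.49, for Phf1, to 0.63, for Bnip1.

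**Figure D4:**
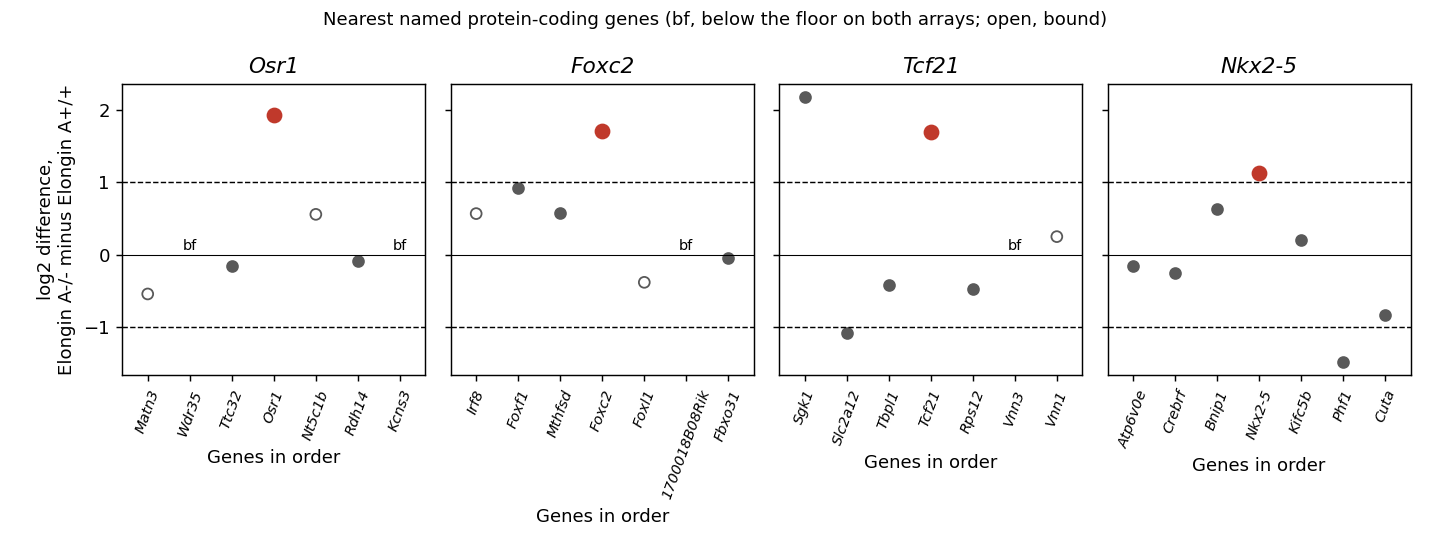
Log2 difference (Elongin A-/- minus Elongin A+/+) of Osr1, Foxc2, Tcf21 and Nkx2-5 (red) and of the nearest named protein-coding genes in their order on the chromosome, open where 1 array was at the floor and "bf" where both were below it. With bounds drawn at their least size, each factor lies above its neighbours except Tcf21, beside which Sgk1 is at 2.19.

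**Figure D5:**
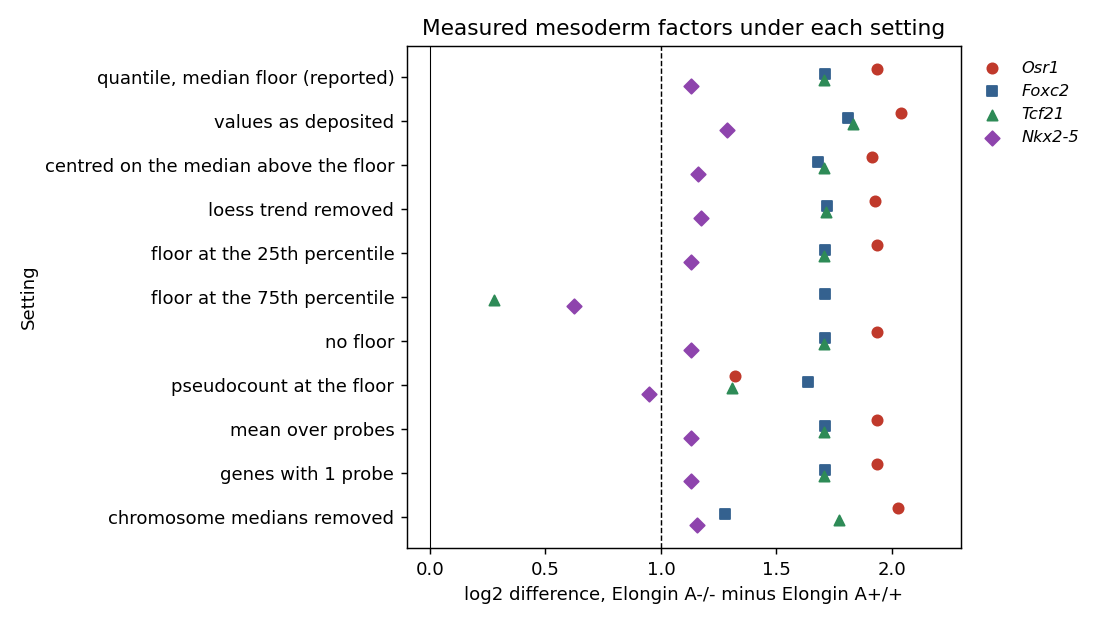
Log2 difference (Elongin A-/- minus Elongin A+/+) of the 4 measured factors under the reported setting and 10 others that change scaling, floor, probes or chromosome medians, with a dashed line at 2-fold. Values stay right of 0 throughout, Nkx2-5 drops left of 2-fold with a pseudocount or the floor at the 75th percentile, Tcf21 with the latter floor, and Osr1 then has no value. A change of floor, a pseudocount or the probe choice could not have moved these values across 0. With the floor at the 75th percentile the Tcf21 and Nkx2-5 values are bounds.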

How the data were processed

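Per the labels, digoxigenin-labelled cRNA was made with an Applied Biosystems NanoAmp kit. The authors deposited linear intensities, and no source used here gives their background correction, normalization or filters. Genotypes were read from the sample titles. Of 32440 probes, 14253 had 1 gene symbol in the platform annotation, 243 had several and 17944 had none. The deposited intensities were quantile normalised on log2 values because their 25th and 75th percentiles differed by -0.12 and 0.15. Values under the floor (50th percentile) were set to it. Where a gene had several probes, the brightest by mean log2 was kept. Genes were counted at 2-fold, with no test, since there was 1 array per genotype. Chromosomes and gene order came from RefSeq (GRCm38.p6), and chromosome names only are given except for upstream windows. Named genes were the 9 factors, their relatives, up to 4 genes per list with the largest difference, and a fixed set of mesoderm and marker genes. Dll1, Cdh5, Tie1, the neighbouring genes and some genes under other observations were added outside this rule. The factors and lists were chosen with earlier results of these data known. Scaling, floor, probe choice, chromosome medians and fold were varied in 12 settings. The procedure was tested on simulated data with effects put only into brighter genes, so the test does not cover genes near the floor. It used Python 3.11.15, numpy 2.4.6, pandas 2.3.3 and statsmodels 0.14.6.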

Additional observations from a re-analysis of the deposited data

How the results depend on the processing

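Osr1, Foxc2, Tcf21 and Nkx2-5 kept their direction in each setting that gave a value, with ranges of 1.32 to 2.04 (Osr1), 1.28 to 1.81 (Foxc2), 0.28 to 1.83 (Tcf21) and 0.62 to 1.29 (Nkx2-5). The low ends for Tcf21 and Nkx2-5 are bounds, because their Elongin A+/+ values lay below the floor in that setting. Many of these settings could not have turned the direction. Each gene has 1 probe and lay above the floor on both arrays, so probe choice, a lower floor and no floor repeated the reported value. A higher floor or a pseudocount shrinks a difference but cannot reverse it. A change of more than the probe disagreement of 0.43 came with a pseudocount for Osr1 (1.32), with chromosome medians removed for Foxc2 (1.28), and, for Tcf21 (0.28) and Nkx2-5 (0.62), with a floor at the 75th percentile, where Osr1 was below the floor on both arrays. That floor left 1 of the 9 genes at least 2-fold higher, Foxc2, because it replaces dim values by a higher one. With a pseudocount 3 were 2-fold higher. None was 2-fold lower in any setting.

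Over all genes, counts at least 2-fold higher and lower were 799 and 449 with the values as deposited, 1075 and 980 for a 25th percentile floor, 141 and 118 for a 75th percentile floor, and 1506 and 1414 with no floor. At 1.5-fold they were 1512 and 1416, and at 3-fold 213 and 178. List medians that moved by more than 0.43 were those of heart muscle (0.10 at the 25th percentile floor, 0.10 with no floor, -0.16 at the 75th), relatives (0.032 at the 25th, -0.081 with no floor), and, at the 75th, the lateral plate list (-0.80), endoderm (0.90) and endothelium and blood (0.87). The cause was not tested beyond the construction of the floor. No paired analysis was possible because there was 1 array per genotype. The depth of signal limits Osr1 and the 5 early factors, which lie close to or below the floor.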

Other observations

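Some genes that act beside or after the 5 early factors lay above the floor, and others did not. Etv2, an ETS factor of the earliest blood and vessel precursors, read 19.3 in Elongin A-/- and 3.09 in Elongin A+/+, while Mesp1 and Eomes were below the floor on both arrays. Dll3, a Notch ligand of presomitic mesoderm, read 21.1 in Elongin A-/- and 20.9 in Elongin A+/+, and Hes7, of the same tissue, 5.80 in Elongin A-/- and 1.53 in Elongin A+/+, while Tbx6, Msgn1 and Mesp2 were below the floor. Mixl1, a homeobox factor of the streak, read 1.40 in Elongin A-/- and was below the floor in Elongin A+/+, at least 1.36-fold higher. Of the named genes in the lists, 7 of 21 for the streak and new mesoderm, among them Evx1, Fgf8 and Snai1, and 8 of 20 for paraxial mesoderm and somites, among them Meox2, Uncx and Myf5, were also below the floor on both arrays. Apart from Hes7, the genes of this paragraph were looked up after their values were seen. Each rests on 1 probe.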
